A study of Mus musculus with 2 samples.

Results

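The cells described here are dendritic cells of 4T1 mammary tumours that carry Flt3, the receptor for the growth factor on which dendritic cells depend, together with class II antigen presentation transcripts. A cell was taken when it had at least 1 Flt3 molecule and at least 3 molecules of H2-Aa and H2-Eb1 together. It also had to have at most 2 of C1qa and C1qb together, 0 of Cd3d, Cd3e and Cd3g, and at most 1 of Cd79a and Cd79b. S100a8 had to make up less than a 0.1 share of its molecules. This rule found 92 of 12018 cells. Of the 5198 cells under the S100a8 limit, 1633 passed the class II minimum, 1157 of those passed the limits on lymphocyte and C1q transcripts, and the Flt3 minimum then left the 92. The rule reads measured values, so Flt3, H2-Aa, H2-Eb1 and the transcripts it limits are given as descriptions of the choice.

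The tumours grew from 4T1 cells, a BALB/c mammary carcinoma line, in the mammary fat pad of female BALB/c mice aged 8 weeks. Antibody treatment followed 7 days later, at volumes near 70 cubic mm, in 4 arms of 6 mice, and 2 tumours per arm went into single-cell work. The anti-PD-1 pool is 1 cartridge holding the arms given anti-PD-1 antibody (clone RMP1-14) alone or with anti-Siglec-E antibody, under tags 3 and 4. The pool without anti-PD-1 is the other cartridge, holding the arms given isotype antibody or anti-Siglec-E antibody alone, under tags 1 and 2. Which tag belongs to which arm is not in the labels, so no value is given to an arm. EPCAM-positive and EPCAM-negative cells were loaded at 1 to 4, so shares of all cells describe that mixture and not the tumour. With 1 cartridge per pool there are no replicates and no test of treatment, and cartridge and treatment cannot be told apart. Values are given by tag, and a pool's value is the mean of its 2 tags.

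Dendritic cells take up antigen in tissues, display its peptides on class II molecules and carry it to lymph nodes, where they prime T cells. Conventional type 1 cells, marked by Itgae (CD103) in tissues and by the factor Irf8, specialise in presenting antigen to CD8 T cells, while type 2 cells and monocyte-derived cells serve mainly CD4 T cells. On maturation dendritic cells of either origin raise Ccr7, the receptor that guides them to lymph nodes, and Fscn1, an actin-bundling protein of their dendrites. Plasmacytoid dendritic cells also carry Flt3, and are known by Siglech and by interferon production through Tlr7.

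Class II genes are switched on through a promoter module that includes the Y box, an inverted CCAAT sequence bound by the factor NF-Y. The windows of H2-Aa and H2-Eb1, on which the cell rule rests, are shown with that of Irf8, a factor of type 1 cells. They are shown because all of them hold a Y box and both class II genes were called higher together in the Itgae-positive cells below. Each line gives the 250 bases before a transcription start, from RefSeq on GRCm38.p6, with the motif CTGATTGG in capitals. The windows are H2-Aa at chr17:34287824-34288073 on the minus strand, H2-Eb1 at chr17:34305617-34305866 on the plus strand and Irf8 at chr8:120736108-120736357 on the plus strand.
H2-Aa: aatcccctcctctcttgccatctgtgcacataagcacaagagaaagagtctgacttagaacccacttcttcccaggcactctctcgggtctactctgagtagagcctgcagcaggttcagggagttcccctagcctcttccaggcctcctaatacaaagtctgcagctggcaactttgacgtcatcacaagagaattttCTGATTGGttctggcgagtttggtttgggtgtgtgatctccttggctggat
H2-Eb1: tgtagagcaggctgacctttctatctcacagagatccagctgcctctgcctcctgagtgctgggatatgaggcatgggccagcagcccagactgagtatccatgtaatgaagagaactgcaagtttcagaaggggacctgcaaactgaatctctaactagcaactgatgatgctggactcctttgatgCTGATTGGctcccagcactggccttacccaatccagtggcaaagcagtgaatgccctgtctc
Irf8: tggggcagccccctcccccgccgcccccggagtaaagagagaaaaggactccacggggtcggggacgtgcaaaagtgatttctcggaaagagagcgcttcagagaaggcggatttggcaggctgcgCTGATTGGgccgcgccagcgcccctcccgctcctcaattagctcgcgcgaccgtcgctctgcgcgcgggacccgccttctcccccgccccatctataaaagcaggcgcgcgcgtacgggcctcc
The motif begins 51 bases before the start of H2-Aa, 62 before that of H2-Eb1 and 124 before that of Irf8. Searched on both strands, its letters occur in 1258 of 32851 such windows, or 3.83%. A match is a description of the letters and not a bound site, and the reference strain is not BALB/c. The window of a second Irf8 start and those of Flt3, Fscn1, Il12b, H2-DMa and Siglech in the same table did not hold these letters.

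Tag 3 gave 62 dendritic cells, tag 4 gave 12, tag 1 gave 8 and tag 2 gave 10. Over the 396 genes counted in all 4 tags, the median cell held 1366 molecules in tag 3, 2155 in tag 4, 2448 in tag 1 and 2083 in tag 2. Summed, the cells of a tag held 20909 molecules in tag 2, the fewest, to 115531 in tag 3, the most. In tag 1, 2 cells held 8262 and 6540 of the 26748 molecules, so tag 1 levels lean on them. Levels below are molecules per 1000000 of the summed molecules of the shared genes (CPM), and exact 95% intervals cover counting error only. A further 72 genes, Siglech and Cd83 among them, were counted in tags 2 to 4 only. The cartridges shared 37 cell indices, of which 1 belonged to a dendritic cell, and no index occurred under both tags of 1 cartridge.

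The cells carried the markers that name them, against S100a8-rich cells of the same tumours, of which 6820 were set apart as cells that should lack these transcripts. Median depth was 1804.5 molecules in the dendritic cells and 1493 in the S100a8-rich cells. Btla, an inhibitory receptor of lymphocytes and type 1 dendritic cells, had at least 1 molecule in 44.6% of the dendritic cells and in 0.455% of S100a8-rich cells. Ccr7 was seen in 48.9% of dendritic and 1.67% of S100a8-rich cells, and Itgae in 21.7% of dendritic and 0.616% of S100a8-rich cells. Il12b, a subunit of interleukin 12, was seen in 14.1% of dendritic and 0.0587% of S100a8-rich cells. Irf8 was seen in 84.8% of dendritic and 3.78% of S100a8-rich cells, and the costimulatory ligand Cd86 in 79.3% of dendritic and 8.70% of S100a8-rich cells. All of these shares lay above those of the S100a8-rich cells. Irf8 and Cd86 were shared with the C1q macrophages described below, which had them in 91.6% and 84.3% of cells. Median depth in those macrophages was 4934 molecules. They had Btla in 1.05%, Itgae in 1.05%, Il12b in 2.09% and Ccr7 in 14.7% of cells. Thinned to 1000 molecules a cell, which left out 20 dendritic and 1989 S100a8-rich cells, the shares were 41.7% of dendritic and 0.310% of S100a8-rich cells for Btla. For Ccr7 they were 43.1% of dendritic and 1.26% of S100a8-rich cells, and for Itgae 25% of dendritic and 0.373% of S100a8-rich cells. Thinned Irf8 was seen in 76.4% of dendritic cells and 74.0% of C1q macrophages, and Cd86 in 77.8% and 67.6%. The T cell receptor constant gene Trac, the B cell gene Ms4a1, Foxp3 and Cx3cr1 were at 0 in all 92 cells. In their marker lists, 5 of 15 T cell, 5 of 11 B or plasma cell and 1 of 7 monocyte genes were at 0. The T cell count includes the Cd3 genes, which the rule set at 0. Others were seen, with Cd8a in 15.2%, Ighm in 42.4%, Cd14 in 81.5% and Ccr2 in 48.9% of dendritic cells. In S100a8-rich cells Trac was seen in 1.92%, Foxp3 in 0.381%, Ms4a1 in 0.0733% and Cx3cr1 in 0.044%, so these zeros say little.

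The limits of the rule cut through few cells except for Flt3. Of the members, 18 had 1 Flt3 molecule and 10 had 2, while 1065 cells met every other limit with 0. Inside the class II limit, 3 members had 3 to 5 molecules, and 18 cells had fewer and were left out. The 18 cells with 1 Flt3 molecule had medians of 60 Lyz2, 29 Cd14 and 89.5 H2-Aa molecules, whereas the 45 with at least 5 Flt3 molecules had medians of 1 Lyz2 and 215 H2-Aa molecules. Lyz2 (lysozyme) and Cd14 (an endotoxin co-receptor) mark monocytes and their progeny. The members with the fewest Flt3 molecules thus carried the most Lyz2.

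The label therefore covers several transcript profiles rather than 1 cell type. Thresholds chosen after the values were seen divide the 92 cells into 6 groups. Of these, 17 had at least 5 molecules each of Fscn1 and Ccr7, and 13 more had at least 5 Ccr7 with less Fscn1 and no such Siglech level. Without Ccr7 at that level, 14 had at least 2 Itgae molecules, 3 of them with at least 20 Lyz2 molecules as well. Called Lyz2-high here are 21 cells with at least 20 Lyz2 molecules and with Ccr7, Itgae and Siglech below these limits. A further 15 had at least 5 Siglech molecules, whether or not they had Ccr7, and 12 fitted none of these. The heat map of single cells shows the blocks.

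**Figure D1:**
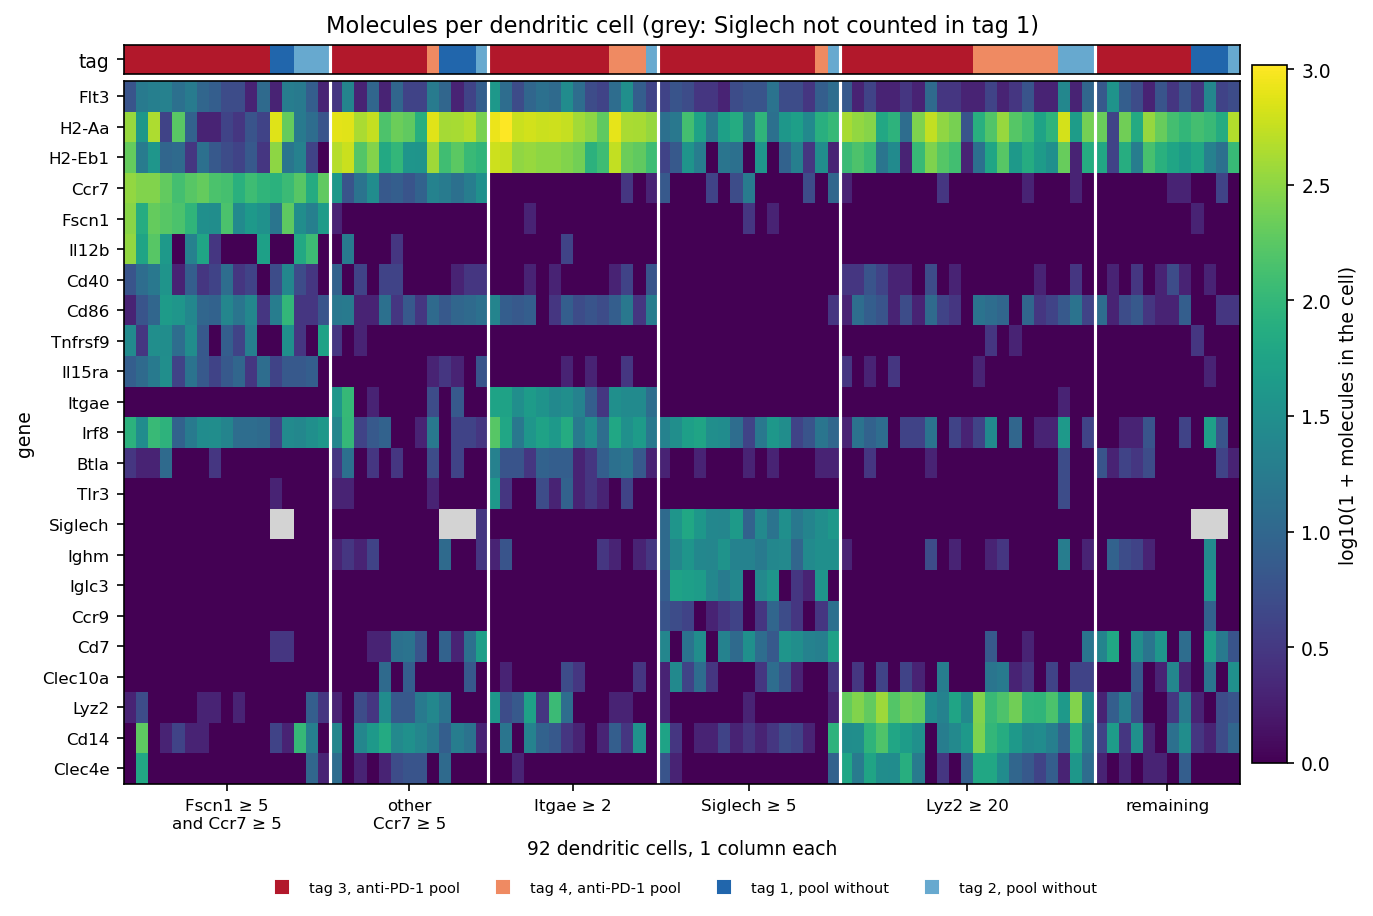
Molecules of 23 genes (rows, colour on a log10(1 + molecules) scale) in each of the 92 dendritic cells (columns), grouped by the thresholds named in the text. Grey marks Siglech in tag 1, where it was not counted. Fscn1 fills the first block, where Il12b is seen in 10 of 17 cells, Itgae the block of 14 cells, Siglech with Ighm and Iglc3 the block of 15, and Lyz2 with Cd14 the block of 21.

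The 17 Fscn1-high cells held a median of 145 Ccr7 molecules, with a range of 70 to 338, and 44 Fscn1 molecules, with a range of 14 to 304. Ccr7 in the 13 other Ccr7-high cells had a median of 13 and a range of 5 to 38, so the 2 ranges did not meet. Every cell with at least 50 Ccr7 molecules, 17 of 17, had at least 5 Fscn1 molecules, against 0 of 16 with 5 to 49 Ccr7 molecules and 0 of 59 with fewer. At least 5 Il12b molecules were found in 9 of the 17 Fscn1-high cells and in 1 of the other 75. The Fscn1-high cells also held 24160 CPM of Ccl5 (a chemokine that attracts T cells), 5570 of Tnfrsf9 (the costimulatory receptor 4-1BB), 6912 of Stat4 and 3087 of Il15ra, which presents interleukin 15. H2-Aa stood at a median of 8 molecules in them, with a range of 1 to 738, against a median of 417 in the other Ccr7-high cells. Socs2, a cytokine signalling inhibitor counted in tags 2 to 4, was at 3036 CPM in Fscn1-high cells and at 392 CPM in the other Ccr7-high cells. Itgae was at 0 in all 17, and at 5068 CPM in the other Ccr7-high cells. That level rested on few cells, with 103 molecules in 1 cell, 37 in another and 0 in most.

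The 14 Itgae-positive cells below the Ccr7 limit had the profile of conventional type 1 cells. They held a median of 28.5 Itgae molecules, 39 Irf8, 6.5 Btla, 10.5 Flt3 and 582 H2-Aa. At least 10 Irf8 molecules were found in 14 of 14, against 15 of 44 cells with 0 Itgae and under 5 Ccr7 molecules. Median depth was 2650.5 molecules in the Itgae-positive and 1284 in the Itgae-zero cells. The counts of cells given here were not corrected for that difference. Irf8 was not particular to the Itgae-positive cells. Siglech-high cells held up to 56 Irf8 molecules a cell, and Fscn1-high cells up to 109. Btla was seen in 14 of 14 Itgae-positive and 12 of the 44 Itgae-zero cells. Tlr3, the sensor of double-stranded RNA typical of type 1 cells, was seen in 9 of 14 Itgae-positive and 0 of the 44 Itgae-zero cells. Cd7, a surface protein best known from lymphoid cells, was seen in 0 of 14 Itgae-positive and 22 of the 44 Itgae-zero cells. Havcr2, which encodes the inhibitory receptor TIM-3, was at 7798 CPM in the Itgae-positive cells, higher than in any of the other 5 groups. Qpct, a glutaminyl cyclase, was likewise highest there, at 5484 CPM, and H2-DMb2, a chain of the peptide-loading molecule, at 5787 CPM.

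The 15 Siglech-high cells carried the plasmacytoid profile. They held a median of 25 Siglech molecules, with a range of 8 to 62, and a median of 24 Ighm molecules. In tags 2 to 4, Siglech was at 0 in 68 of 84 cells, at 1 to 4 in 1, and at 5 or more in 15, so few cells lay near the limit. Light chain transcripts Iglc3 or Igkc were seen in 14 of 15 Siglech-high cells and in 1 of the other 69. Ccr9, a homing receptor of plasmacytoid cells, was seen in 12 of 15 and in 0 of 69. Irf7, the interferon regulator, was at 10947 CPM, Tlr7 at 2273, Cd4 at 3170 and Cd8b1 at 4786, while Cd74, the class II invariant chain, was at 1017 CPM and Cd86 at 120. They were small in molecules, with a median of 979. In tag 1, where Siglech was not counted, 1 of 8 cells carried Ccr9, Igkc and Iglc3.

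The 21 Lyz2-high cells carried monocyte transcripts. They held a median of 149 Lyz2 molecules, with a range of 21 to 375, but a median of 2 Flt3 molecules, and 10 of the 21 had 1. Cd14 was at 25432 CPM, Clec4e (the inducible lectin Mincle) at 11315 and Itgam, the integrin CD11b, at 2737, each highest among the 6 groups. H2-Aa was at 99687 CPM, close to the 108506 CPM of the 12 cells that fitted no group. Tag 1 gave none of these cells, and tags 3, 4 and 2 gave 11, 7 and 3. Flt3 was also seen in 0.337% of the S100a8-rich cells.

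Dendritic cells made up 0.937% of all cells in tag 3 (exact 95% interval 0.719 to 1.20%) and 0.826% in tag 4 (0.427 to 1.44%). They made up 0.329% in tag 1 (0.142 to 0.648%) and 0.660% in tag 2 (0.317 to 1.21%). Both tags of the anti-PD-1 pool were above both tags of the other pool, with means of 0.881% and 0.495% and a difference of 0.387 percentage points. The intervals of tags 3, 4 and 2 overlapped. That of tag 1 overlapped those of tags 4 and 2 but not that of tag 3. Without tag 1 the difference was 0.221 points. Without the 26 dendritic cells that had at least 20 Lyz2 molecules, whatever else they carried, the shares were 0.710% and 0.275% in tags 3 and 4 and 0.329% and 0.462% in tags 1 and 2, so that the pools overlapped and the difference was 0.0970 points.

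Ccr7-high cells, the cells with at least 5 Ccr7 molecules, were a smaller part of the dendritic cells in the anti-PD-1 pool. They were 22 of 62 in tag 3 (35.5%, interval 23.7 to 48.7%) and 1 of 12 in tag 4 (8.33%, 0.211 to 38.5%). In the other pool they were 5 of 8 in tag 1 (62.5%, 24.5 to 91.5%) and 5 of 10 in tag 2 (50%, 18.7 to 81.3%). The pool means were 21.9% and 56.25%, a difference of -34.3 percentage points, but the intervals of all 4 tags overlapped. The difference was -20.8 points without tag 4. As a share of all cells the Ccr7-high cells were 0.332% and 0.0688% in tags 3 and 4, against 0.206% and 0.330% in tags 1 and 2, and those pools overlapped. Dendritic cells below the Ccr7 limit were 0.604% and 0.757% of all cells in tags 3 and 4, against 0.123% and 0.330% in tags 1 and 2. These values of the pools did not overlap. The interval of tag 2 (0.107 to 0.768%) did overlap those of tag 3 (0.432 to 0.822%) and tag 4 (0.379 to 1.35%). Tags 1 and 2 gave only 3 and 5 such cells. Lyz2-high cells were 11 of the 40 in tag 3, 7 of 11 in tag 4, 0 of 3 in tag 1 and 3 of 5 in tag 2. Cells with at least 5 Fscn1 molecules were 12 of 62 and 0 of 12 in tags 3 and 4, the 0 allowing a share of up to 25% by the limit of 3 counts, against 2 of 8 and 3 of 10 in tags 1 and 2.

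**Figure D2:**
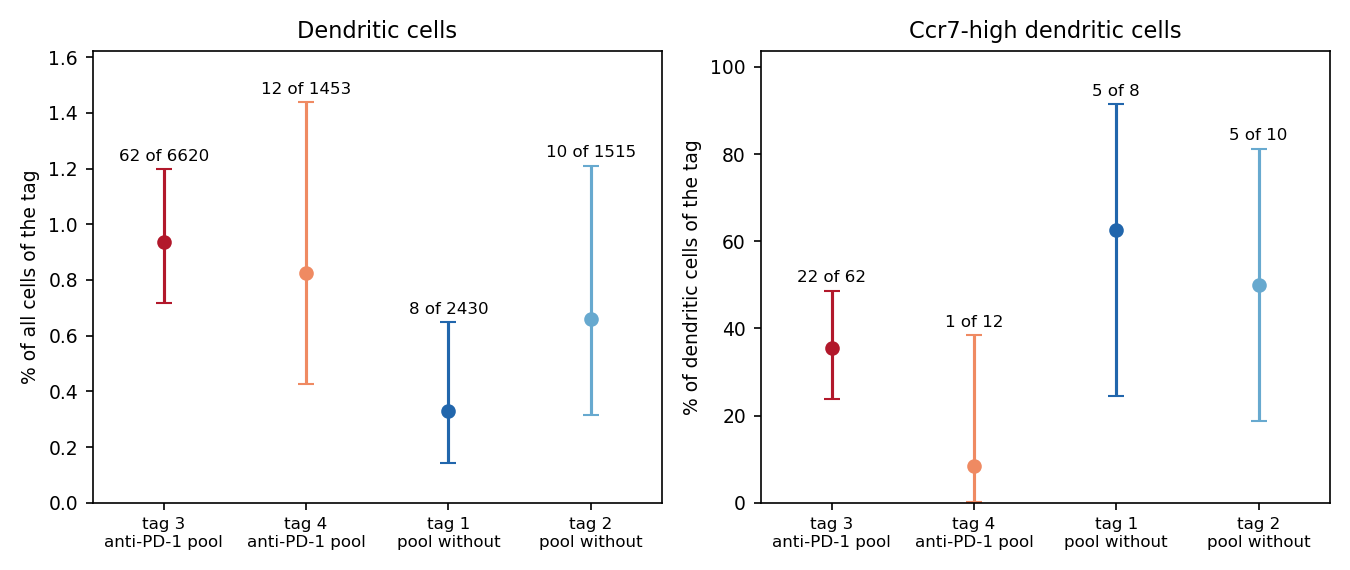
Percent of all cells that were dendritic cells, and percent of dendritic cells that were Ccr7-high, for tags 3 and 4 (anti-PD-1 pool) and tags 1 and 2 (pool without anti-PD-1), with exact 95% intervals for counting error. The first share is 0.937% and 0.826% against 0.329% and 0.660%, and the second is 35.5% and 8.33% against 62.5% and 50%, with wide intervals in every tag but tag 3.

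The Itgae-positive cells, counted here at any Ccr7, were 12 of 62 dendritic cells in tag 3 and 4 of 12 in tag 4, against 1 of 8 in tag 1 and 1 of 10 in tag 2. Siglech-high cells were 13 of 62 in tag 3 and 1 of 12 in tag 4, against 1 of 10 in tag 2. With 8 and 10 dendritic cells in tags 1 and 2, each of these shares rests on 1 cell there.

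Levels in the dendritic cells were then compared between the pools. A gene was called where both tags of 1 pool lay above both tags of the other, the nearest by at least 1.5-fold, with at least 30 molecules in all. Of 230 genes measured, 21 were called (9.13%), 11 higher (4.78%) and 10 lower (4.35%) in tags 3 and 4, and in 8 of the 21 a single cell held over 25% of the molecules. The median log2 ratio of all 230 was -0.17. With TMM scaling (trimmed mean of M values) 18 were called, 13 higher and 5 lower, and the median was -0.03. With a tag left out 47 to 105 were called, since fewer tags then had to be apart.

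Genes of the type 1 profile were among the higher ones. Itgae was at 3843 and 3020 CPM in tags 3 and 4, against 224 and 574 CPM in tags 1 and 2, a log2 ratio of 3.10. Btla was at 1039 and 1256 CPM in tags 3 and 4, against 224 and 335 CPM in tags 1 and 2, a log2 ratio of 2.04. Of the 4 measured type 1 markers these 2 were called, and the median log2 ratio of the 4 was 1.79. Qpct was at 1999 and 611 CPM in tags 3 and 4, against 112 and 383 CPM in tags 1 and 2. H2-Eb1, which the cell rule used, was at 60573 and 60680 CPM in tags 3 and 4, against 31105 and 29795.8 CPM in tags 1 and 2, and was the 1 class II gene of 6 called. H2-Aa at 125360 and 118679 CPM in tags 3 and 4, against 95035 and 103544 CPM in tags 1 and 2, lay apart by less than 1.5-fold. Without the Itgae-positive cells 13 genes were called, with 2 of the 11 higher calls and 3 of the 10 lower calls kept. Btla then had a log2 ratio of 0.39 and H2-Eb1 of 0.15, and neither was called.

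A chemokine and inhibitory genes gave further calls, several of them resting on 1 cell. Cxcl9, an interferon-gamma induced chemokine that draws CXCR3-bearing T cells, was at 3358 and 7263 CPM in tags 3 and 4, against 935 and 95.7 CPM in tags 1 and 2, with 40.9% of its molecules in 1 cell. Ctla4, the inhibitory receptor that competes for CD80 and CD86, was at 597 and 2138 CPM in tags 3 and 4 and at 0 in tags 1 and 2, with 40.2% of its molecules in 1 cell. It was seen in 13 of the 92 cells and in 0 of the 17 Fscn1-high cells. Il10, an inhibitory cytokine, was at 312 and 475 CPM in tags 3 and 4 and at 0 in tags 1 and 2, with 32% in 1 cell. Cd8a, Cd36 and Cd38 were also called higher, and 26.1% of the Cd8a molecules were in 1 cell.

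The 10 lower calls held 2 of the 6 measured genes of the macrophage list, Spp1 and Cd72, against 4.35% of all 230 measured genes called lower. Spp1 (osteopontin) was at 1558 and 611 CPM in tags 3 and 4, against 14431 and 2678 CPM in tags 1 and 2, with 44.1% of its molecules in 1 cell. Cd72 was at 623 and 136 CPM in tags 3 and 4, against 1233.7 and 1196 CPM in tags 1 and 2. The lysosomal protease gene Ctsd was at 1939 and 2715 CPM in tags 3 and 4, against 5571 and 4304 CPM in tags 1 and 2. Lgals9, which encodes galectin-9, was at 874 and 1324 CPM in tags 3 and 4, against 3290 and 2296 CPM in tags 1 and 2. Tgfb3, with 32.3% of its molecules in 1 cell, was at 69.2 and 33.9 CPM in tags 3 and 4, against 523 and 383 CPM in tags 1 and 2. Casp1, Nrp1, Klra17, Ddx58 and Il18rap were the other lower calls, and 1 cell held 25.5% of the Klra17 and 27.3% of the Il18rap molecules. Spp1, Lgals9, Klra17, Ctsd and Casp1 were not called with TMM scaling. Without the Ccr7-high cells 11 genes were called higher and 4 lower, which kept 6 of the 11 higher calls but 0 of the 10 lower ones. With at least 2 Flt3 molecules required, 10 of the 11 higher calls remained, and 2 of the 10 lower.

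Summed markers of other cell types moved with the tags too. The macrophage list summed to 4241 and 3462 CPM in tags 3 and 4, against 17235 and 17983 CPM in tags 1 and 2. In tag 1 Spp1 made up 14431 CPM of that sum, and in tag 2 Arg1 made up 9422 CPM. A single cell held 98.5% of the Arg1 molecules of the dendritic cells. The monocyte list, of which 7 of 12 genes were counted, summed to 31013 and 64617 CPM in tags 3 and 4, against 9047 and 35822 CPM in tags 1 and 2. The 2 of 8 tumour cell markers counted in all tags, Lgals1 and Fn1, summed to 13988 and 12218 CPM in tags 3 and 4, against 114139 and 13487 CPM in tags 1 and 2. Natural killer markers summed to 6787 CPM in tag 4 and to under 100 in each other tag. Gzma and Nkg7 of that list rested on single cells. Among the Itgae-positive and Itgae-zero cells below the Ccr7 limit, 1 cell held 100% of the 71 Gzma molecules. A single cell also held 92.9% of the 42 Nkg7 molecules there. At least 3 molecules of Epcam, the tumour cell surface marker, were found in 4 of the 84 cells of tags 2 to 4. The part of these other transcripts in the calls was not tested.

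**Figure D3:**
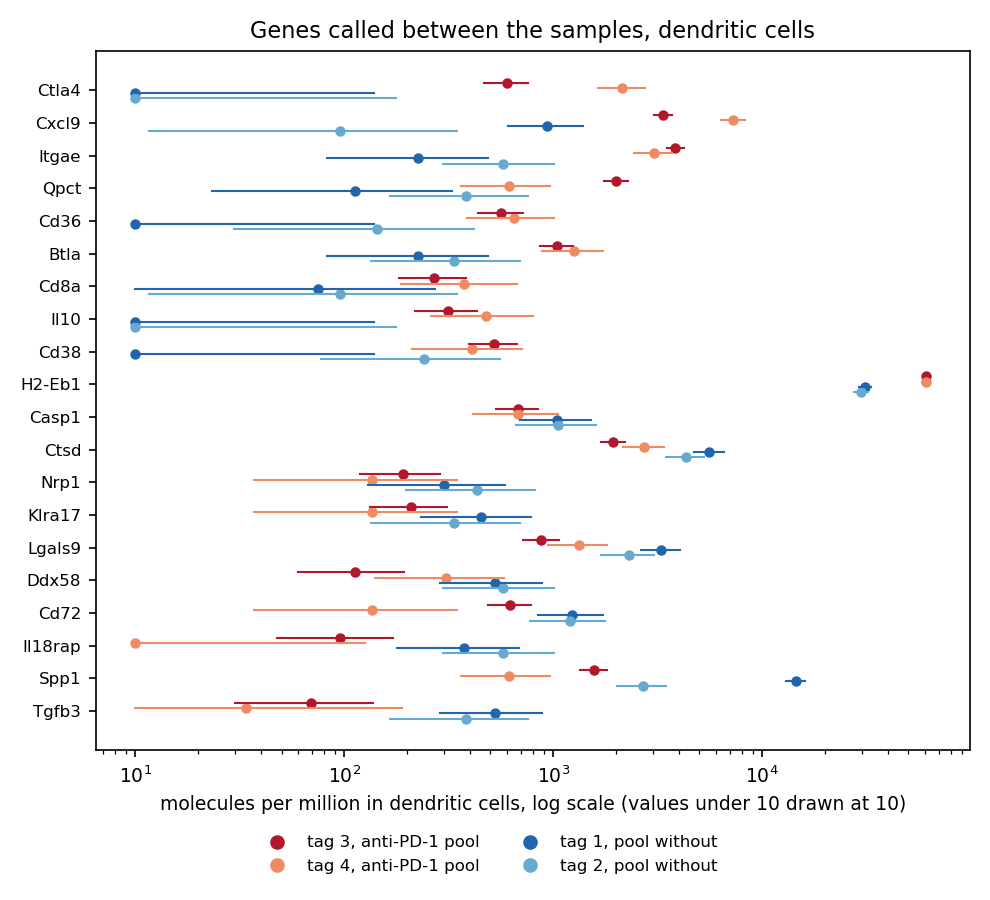
Levels (CPM, log axis) of called genes in the dendritic cells of tags 3 and 4 (anti-PD-1 pool) and tags 1 and 2 (pool without anti-PD-1), with exact 95% Poisson intervals for counting error. Itgae and Btla are apart by 5.26-fold and 3.10-fold between the nearest tags, while 8 of the 10 lower calls are apart by less than 2-fold.

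Several of the best known dendritic cell genes did not separate the pools. Flt3 was at 3930 and 2953 CPM in tags 3 and 4, against 2243 and 3970 CPM in tags 1 and 2. Ccr7 was at 19934 and 815 CPM in tags 3 and 4, against 9272 and 22670 CPM in tags 1 and 2. Il12b was at 6544 and 0 CPM in tags 3 and 4, against 0 and 8657 CPM in tags 1 and 2, and 1 cell held 35.7% of its molecules. Irf8 was at 12802 and 7025 CPM in tags 3 and 4, against 3402 and 7844 CPM in tags 1 and 2. None of the 9 measured maturation and costimulation genes was called, and their median log2 ratio was -0.17, as over all genes. The antibody targets themselves were scarce. Siglece, the target of anti-Siglec-E, had 15 molecules in 8 of the 84 cells of tags 2 to 4, and Pdcd1 (PD-1) had 11 in 5 of the 92. Cd274, the ligand PD-L1, was seen in 76 of the 92.

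The Ccr7-high cells were compared with the other dendritic cells within each pool. A gene was called where the ratio was at least 2-fold in the same direction in both pools. Of 230 genes measured, 47 were called (20.4%), 23 higher (10%) and 24 lower (10.4%) in the Ccr7-high cells, and in 14 of the 47 a single cell held over 25% of the molecules. Ccr7 itself made the division and is no finding. The 33 Ccr7-high cells came as 23 from the anti-PD-1 pool, 22 of them from tag 3, and 10 from the other pool, and without tag 3 only 10 genes were called.

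Fscn1 was at 25194 CPM in Ccr7-high and 21.3 CPM in other cells of the anti-PD-1 pool, and at 10167 CPM in Ccr7-high and 52.8 CPM in other cells of the pool without it. The other cells held 2 Fscn1 molecules in the anti-PD-1 pool and 1 in the pool without it, so the ratios of 1181 (95% counting interval 326 to 9762) and 192.5 (34.3 to 7630) are imprecise. Il12b was at 14695 CPM in Ccr7-high and 32.0 CPM in other cells of the anti-PD-1 pool, and at 6302 CPM in Ccr7-high and 0 in other cells of the pool without it. Against a floor of 3 counts for the other cells, Il12b was at least 39.8-fold higher in the Ccr7-high cells of the pool without anti-PD-1, and 1 cell held 35.7% of the molecules. Outside the Ccr7-high cells both genes were thus at or under 3 molecules per pool.

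Costimulation and T cell attraction genes followed. Tnfrsf9 was at 3239 CPM in Ccr7-high and 32.0 CPM in other cells of the anti-PD-1 pool, and at 2994 CPM in Ccr7-high and 106 CPM in other cells of the pool without it. Ccl5 was at 15026 CPM in Ccr7-high and 1323 CPM in other cells of the anti-PD-1 pool, and at 11943 CPM in Ccr7-high and 0 in other cells of the pool without it. A single cell held 29.4% of the Ccl5 molecules. Both differences were over 10-fold in the anti-PD-1 pool. Il15ra was at 2283 CPM in Ccr7-high and 107 CPM in other cells of the anti-PD-1 pool, and at 1045 CPM in Ccr7-high and 52.8 CPM in other cells of the pool without it. Stat4, which carries interleukin 12 signals, was at 4684 CPM in Ccr7-high and 192 CPM in other cells of the anti-PD-1 pool, and at 2716 CPM in Ccr7-high and 158 CPM in other cells of the pool without it. Il15ra and Stat4 were each over 10-fold higher in the Ccr7-high cells of both pools. Tnfrsf9, Il15ra and Stat4 were uneven within the Ccr7-high cells, with most of their molecules in the 17 Fscn1-high cells. Most of the 13 cells with less Fscn1 held 0 of each gene. None of those 13 held over 2 Tnfrsf9, 5 Il15ra or 2 Stat4 molecules. The other 3 Ccr7-high cells were Siglech-high. Ccl17, a ligand of CCR4, was at 2400 CPM in Ccr7-high and 85.3 CPM in other cells of the anti-PD-1 pool, and at 1428 CPM in Ccr7-high and 0 in other cells of the pool without it, and 1 cell held 54.1% of its molecules. Within the Ccr7-high cells Ccl17 was at 1342 CPM in the Fscn1-high cells and at 3491 CPM in those with little Fscn1. The 1 cell with 54.1% of the Ccl17 molecules was among those with little Fscn1 and held most of their Ccl17, so this contrast rests on it. Tcf7, a factor best known from T cells, was at 2283 CPM in Ccr7-high and 0 in other cells of the anti-PD-1 pool, and at 592 CPM in Ccr7-high and 0 in other cells of the pool without it, with 29.9% in 1 cell.

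Of the maturation and costimulation list, 6 of 9 measured genes were called higher, Ccr7 among them, and the list's median log2 ratio was 2.12, against -0.21 over all 230. Cd86 and the receptor for T cell help, Cd40, were among these and were named after their values were seen. Cd86 was at 5171 CPM in Ccr7-high and 2272 CPM in other cells of the anti-PD-1 pool, and at 5710 CPM in Ccr7-high and 2323 CPM in other cells of the pool without it. Cd40 was at 2186 CPM in Ccr7-high and 373 CPM in other cells of the anti-PD-1 pool, and at 1358 CPM in Ccr7-high and 422 CPM in other cells of the pool without it. None of the 6 measured class II genes was called, and their median log2 ratio was -0.50. The Ccr7-high cells were uneven here, with H2-Aa at 44852 CPM in the 17 Fscn1-high cells and at 183420 CPM in the 13 with less Fscn1. H2-Aa was at 97126 CPM in Ccr7-high and 138693 CPM in other cells of the anti-PD-1 pool, and at 91330 CPM in Ccr7-high and 110049 CPM in other cells of the pool without it. Flt3 was not called, at 3883 CPM in Ccr7-high and 3648 CPM in other cells of the anti-PD-1 pool, and at 2577 CPM in Ccr7-high and 3644 CPM in other cells of the pool without it.

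**Figure D4:**
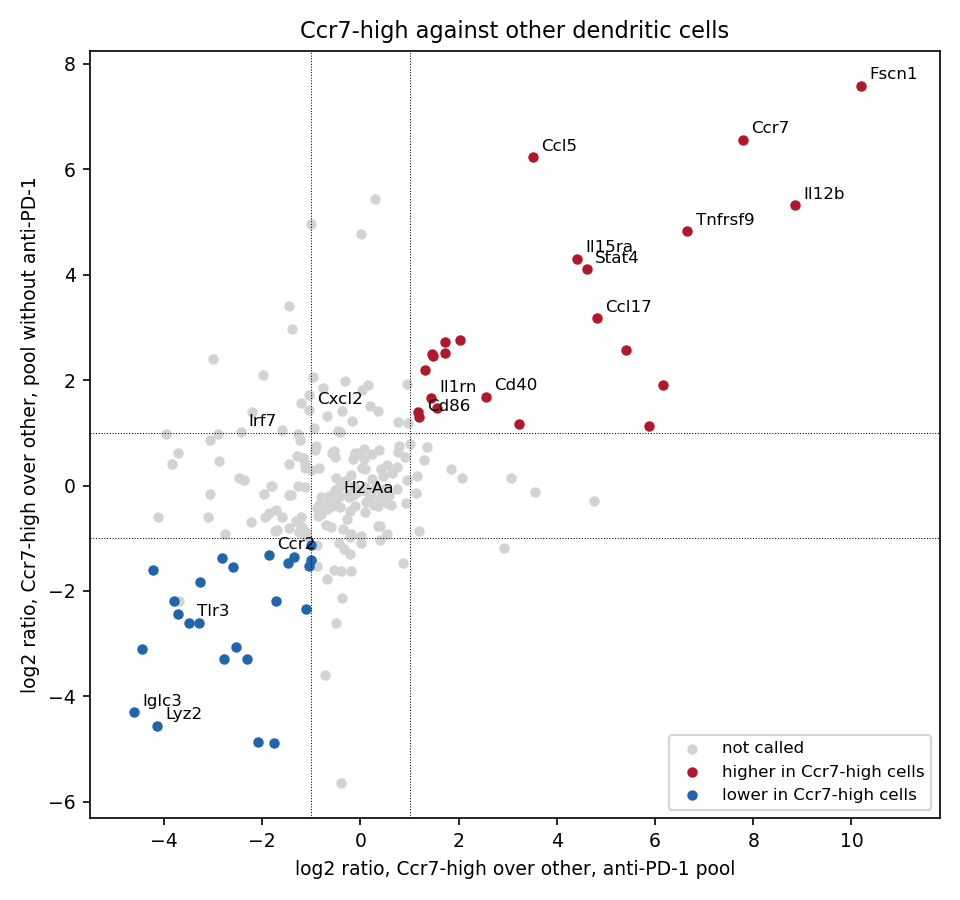
Log2 ratio of levels in Ccr7-high over other dendritic cells for each of the 230 measured genes, in the anti-PD-1 pool (x axis) and in the pool without anti-PD-1 (y axis). Fscn1, Il12b and Tnfrsf9 stand at the upper right and Lyz2 at the lower left, while H2-Aa, which is uneven within the Ccr7-high cells, lies near 0 on both axes.

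Among the lower calls were transcripts of the Lyz2-high, Siglech-high and Itgae-positive cells. Lyz2 was at 1893 CPM in Ccr7-high and 33599 CPM in other cells of the anti-PD-1 pool, and at 801 CPM in Ccr7-high and 18852 CPM in other cells of the pool without it, ratios of 0.0563 and 0.0425. Iglc3 was at 137 CPM in Ccr7-high and 3349 CPM in other cells of the anti-PD-1 pool, and at 0 in Ccr7-high and 2059 CPM in other cells of the pool without it. Tlr7 was at 78.0 CPM in Ccr7-high and 533 CPM in other cells of the anti-PD-1 pool, and at 69.6 CPM in Ccr7-high and 686 CPM in other cells of the pool without it. Tlr3 was at 58.5 CPM in Ccr7-high and 661 CPM in other cells of the anti-PD-1 pool, and at 34.8 CPM in Ccr7-high and 211 CPM in other cells of the pool without it, with 57.1% of its molecules in 1 cell. The innate sensing list had 3 of 9 measured genes called lower, Clec4e, Tlr3 and Tlr7, and none higher. Clec10a, a lectin of type 2 cells, was at 351 CPM in Ccr7-high and 1749 CPM in other cells of the anti-PD-1 pool, and at 279 CPM in Ccr7-high and 2746 CPM in other cells of the pool without it. Ccr2, the receptor by which monocytes enter tissue, was at 507 CPM in Ccr7-high and 1845 CPM in other cells of the anti-PD-1 pool, and at 487 CPM in Ccr7-high and 1215 CPM in other cells of the pool without it.

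Itgae-positive cells were compared with cells with 0 Itgae molecules, both below the Ccr7 limit, under the same 2-fold rule in both pools. The Itgae-positive side of the pool without anti-PD-1 is 1 cell of 2062 molecules, so a call there says that this cell went the same way as the 13 of the anti-PD-1 pool. The 44 Itgae-zero cells are Lyz2-high cells, Siglech-high cells and cells that fitted no group. In the pool without anti-PD-1 they are 3 cells of each tag. There, 1 tag 1 cell held 6540 of the 8822 molecules of its tag, with 129 of H2-Aa. Of 196 genes measured, 47 were called (24%), 18 higher (9.18%) and 29 lower (14.8%) in Itgae-positive cells. Without the 5% of cells with the most molecules, 12 of the 18 higher calls and 24 of the 29 lower calls were kept. Of the class II list, 5 of 6 measured genes were called higher, and their median log2 ratio was 1.45, against -0.28 over all 196. Both sides had passed the same class II minimum of the rule. H2-Eb1 was at 121918 CPM in Itgae-positive and 36539 CPM in Itgae-zero cells of the anti-PD-1 pool, and at 58196 CPM in the Itgae-positive and 18729 CPM in the Itgae-zero cells of the pool without it. Cd74 was at 26733 CPM in Itgae-positive and 8232 CPM in Itgae-zero cells of the anti-PD-1 pool, and at 33948 CPM in the Itgae-positive and 4665 CPM in the Itgae-zero cells of the pool without it. H2-DMa was at 14287 CPM in Itgae-positive and 6468 CPM in Itgae-zero cells of the anti-PD-1 pool, and at 13579 CPM in the Itgae-positive and 5626 CPM in the Itgae-zero cells of the pool without it. Of the 5, H2-Aa and H2-Eb1 were read by the cell rule, and H2-Ab1 was the 1 not called. H2-Aa was at 217541 CPM in Itgae-positive and 93354 CPM in Itgae-zero cells of the anti-PD-1 pool, and at 169253 CPM in the Itgae-positive and 73340 CPM in the Itgae-zero cells of the pool without it. Its call was lost with TMM scaling, where the median over all genes was -0.16. The Y boxes printed above belong to H2-Aa and H2-Eb1, while the windows of H2-DMa held none.

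Beyond class II, Qpct was at 5609 CPM in Itgae-positive and 67.2 CPM in Itgae-zero cells of the anti-PD-1 pool, and at 3395 CPM in the Itgae-positive and 0 in the Itgae-zero cells of the pool without it. Havcr2 was at 7947 CPM in Itgae-positive and 1210 CPM in Itgae-zero cells of the anti-PD-1 pool, and at 5335 CPM in the Itgae-positive and 480 CPM in the Itgae-zero cells of the pool without it. Kit and Cxcl9 went the same way. Kit, the stem cell factor receptor, was at 2016 CPM in Itgae-positive and 286 CPM in Itgae-zero cells of the anti-PD-1 pool, and at 3395 CPM in the Itgae-positive and 960 CPM in the Itgae-zero cells of the pool without it. Cxcl9, with 70.6% of its molecules in 1 cell, was at 6983 CPM in Itgae-positive and 890 CPM in Itgae-zero cells of the anti-PD-1 pool, and at 970 CPM in the Itgae-positive and 137 CPM in the Itgae-zero cells of the pool without it. The monocyte list had 3 of 5 measured genes called lower. Lyz2 was at 6661 CPM in Itgae-positive and 49088 CPM in Itgae-zero cells of the anti-PD-1 pool, and at 0 in the Itgae-positive and 21611 CPM in the Itgae-zero cells of the pool without it. Cd14 was at 2776 CPM in Itgae-positive and 20394 CPM in Itgae-zero cells of the anti-PD-1 pool, and at 0 in the Itgae-positive and 7409 CPM in the Itgae-zero cells of the pool without it. The 1 Itgae-positive cell of the pool without anti-PD-1 thus held neither Lyz2 nor Cd14. Cd7 was at 0 in Itgae-positive and 6350 CPM in Itgae-zero cells of the anti-PD-1 pool, and at 0 in the Itgae-positive and 5763 CPM in the Itgae-zero cells of the pool without it. Irf8 and Btla were not called, because neither reached 2-fold in the pool without anti-PD-1. Irf8 was at 18727 CPM in Itgae-positive and 6989 CPM in Itgae-zero cells of the anti-PD-1 pool, and at 7274 CPM in the Itgae-positive and 3979 CPM in the Itgae-zero cells of the pool without it. Btla was at 2805 CPM in Itgae-positive and 353 CPM in Itgae-zero cells of the anti-PD-1 pool, and at 485 CPM in the Itgae-positive and 274 CPM in the Itgae-zero cells of the pool without it, the 485 CPM being 1 molecule.

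Against the 1065 cells that met every limit but had 0 Flt3 molecules, a gene was called where the ratio was at least 2-fold in the same direction in all 4 tags. These cells are not dendritic cells by default: in tags 2 to 4, 436 of 844 had at least 3 Epcam molecules, and 542 of 1065 had a molecule of the leukocyte gene Ptprc, against 87 of 92 dendritic cells. Of 311 genes measured, 68 were called (21.9%), 57 higher (18.3%) and 11 lower (3.54%) in the dendritic cells, with a median log2 ratio of 0.82 over all 311. With TMM scaling the median was 0.18 and the split 45 higher and 24 lower. Against the Flt3-zero cells with at least 2 Ptprc molecules, 41 of 298 genes were called (13.8%), 31 higher (10.4%) and 10 lower (3.36%).

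Markers that the rule did not read were far higher in the dendritic cells. Btla was at 1039, 1256, 224 and 335 CPM in the dendritic cells of tags 3, 4, 1 and 2, against 7.5, 4.4, 7.4 and 5.4 CPM in Flt3-zero cells. Ccr7 was at 19934, 815, 9272 and 22670 CPM in the dendritic cells, against 72.9, 67.6, 137 and 21.7 CPM in Flt3-zero cells. Irf8 was at 12802, 7025, 3402 and 7844 CPM in the dendritic cells, against 856, 786, 720 and 850 CPM in Flt3-zero cells. Cd7 was at 3791, 882, 3365 and 5787 CPM in the dendritic cells, against 46.9, 4.4, 7.4 and 29.8 CPM in Flt3-zero cells. For these 4 genes all dendritic values lay above all Flt3-zero values. Itgae was called too, but not against the Ptprc-positive cells. Il12b, at 6544, 0, 0 and 8657 CPM in the dendritic cells, against 1.7, 0, 1.5 and 0 CPM in Flt3-zero cells, was not called.

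The 11 lower genes were led by secreted proteins. Spp1 was at 1558, 611, 14431 and 2678 CPM in the dendritic cells of tags 3, 4, 1 and 2, against 58051, 42031, 34783 and 53195 CPM in Flt3-zero cells. Fn1, which encodes fibronectin, was at 918, 2443, 6057 and 1244 CPM in the dendritic cells, against 38405, 33990, 29834 and 35611 CPM in Flt3-zero cells. Cxcl1, a neutrophil chemokine, was at 1143, 916, 4711 and 47.8 CPM in the dendritic cells, against 11438, 8442, 22288 and 22642 CPM in Flt3-zero cells. Csf1, Csf2, Vegfa and Thbs1 were among the others. The Spp1, Csf2 and Thbs1 calls were lost against the Ptprc-positive cells.

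The dendritic cells were also compared with 191 C1q macrophages, under the same rule. These had at least 5 molecules of C1qa and C1qb together and met the class II, Cd3, Cd79 and S100a8 limits, with no limit on Flt3. Cells between the C1q limits were in neither class. In tag 1 the macrophages held 21 Flt3 molecules, 19 of them in 1 cell, and 598 Ccr7 molecules. The Ccr7 ratio there was 5.58. Of 281 genes measured, 44 were called (15.7%), 30 higher (10.7%) and 14 lower (4.98%) in the dendritic cells, with a median log2 ratio of 0.62. With TMM scaling the median was 0.02 and the split 22 higher and 23 lower, and without tag 1, 69 genes were called. Dpp4, the peptidase CD26, was at 1359, 1018, 1159 and 1961 CPM in the dendritic cells of tags 3, 4, 1 and 2, against 25.3, 27.2, 86.2 and 56.9 CPM in macrophages. Ccr7, Itgae, Btla, Cd7, Stat4 and Ighm were also among the higher calls.

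Genes of tissue macrophages were among the lower calls. Mmp12, macrophage elastase, was at 2043, 204, 3103 and 478 CPM in the dendritic cells of tags 3, 4, 1 and 2, against 22610, 20116, 20884 and 33828 CPM in macrophages. Trem2, a lipid receptor, was at 260, 238, 0 and 335 CPM in the dendritic cells, against 2779, 1971, 2530 and 2939 CPM in macrophages. Arg1, which consumes arginine, was at 17.3, 0, 0 and 9422 CPM in the dendritic cells, against 29422, 22304, 28732 and 29636 CPM in macrophages. In the dendritic cells 1 cell held 98.5% of the Arg1 molecules. None of the 6 measured class II genes was called against macrophages. H2-Aa was at 125360, 118679, 95035 and 103544 CPM in the dendritic cells, against 56048, 72213, 40612 and 40946 CPM in macrophages.

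**Figure D5:**
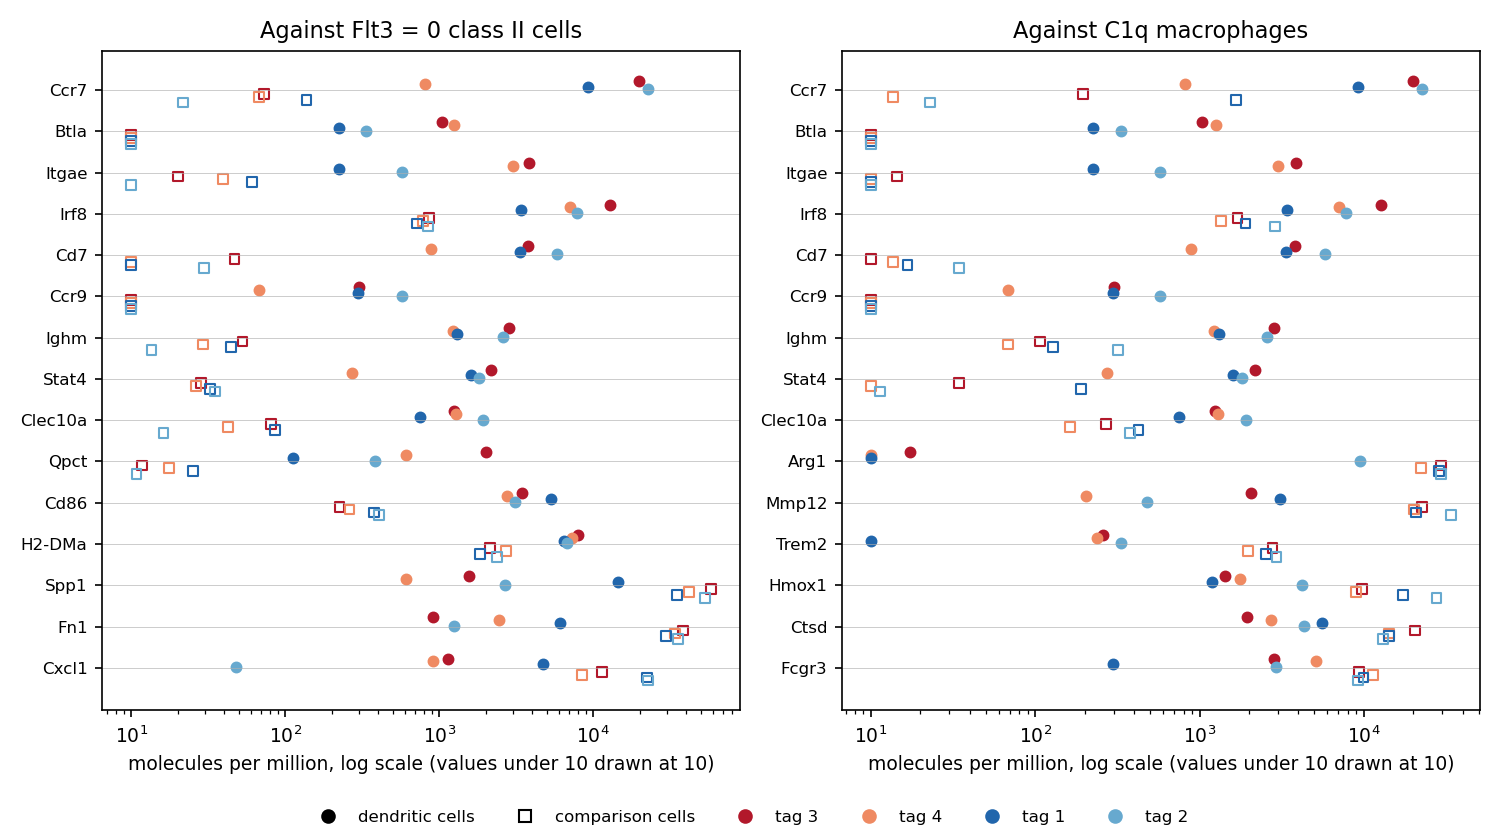
Levels (CPM, log axis, values under 10 drawn at 10) of selected genes per tag in the dendritic cells, in Flt3-zero class II cells and in C1q macrophages. Btla, Ccr7 and Cd7 lie higher in the dendritic cells than in both comparators in every tag. Spp1, Fn1 and Cxcl1 lie lower than in Flt3-zero cells, and Arg1, Mmp12 and Trem2 lower than in macrophages.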

How the data were processed

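The deposited values are counts, that is molecules of each targeted gene in each cell, after distribution-based error correction. The authors made them with version 1.12.1 of the BD Rhapsody Targeted Analysis Pipeline, per the file headers, and split cells by tag. The submitters' processing notes also name Seurat 3.2.0. The aligner, and any build, was not given in the sources used here. Since the table of tag 1 covers a shorter gene list than the others, comparisons use the 396 shared genes.

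Molecules were summed over the cells of each class and tag and scaled to 1000000 (Python 3.11.15, pandas 2.3.3, numpy 2.4.6, SciPy 1.17.1). With 1 sample per group no test was made and no p-value is given. A call is a fixed size rule, for genes with at least 30 molecules, and a side at 0 was set at 3 counts for it. TMM factors from edgeR 4.0.16 served as an alternative scaling. The calling code was tested on simulated data. The members, gene lists and rules were chosen with earlier results of these data known. Genes named are the 10 largest calls in each direction, the 6 markers and the 3 most abundant genes of each list, and others were named after their values were seen. The 6 groups of cells, the comparison with Ptprc-positive cells and 6 other alternatives were also set after the data were seen. No doublet caller was run on the dendritic cells. Leaving out the 5% of cells with the most molecules was an alternative. No column was left unused. Some called genes are not reported here.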

Additional observations from a re-analysis of the deposited data

Results flagged for a closer look

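Cxcl2, a chemokine that draws neutrophils, differed in direction between the pools when Ccr7-high cells were set against other dendritic cells. Its log2 ratio was -1.04 in the anti-PD-1 pool and 1.44 in the pool without anti-PD-1. Its level was 15261 CPM in Ccr7-high and 31433 CPM in other cells of the anti-PD-1 pool, and 12709 CPM in Ccr7-high and 4700 CPM in other cells of the pool without it. A single cell held 26.3% of all Cxcl2 molecules.

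Irf7, a regulator of type I interferon genes, was the other such gene, with a log2 ratio of -2.44 in the anti-PD-1 pool and 1.01 in the pool without it. Its level was 1093 CPM in Ccr7-high and 5941 CPM in other cells of the anti-PD-1 pool, and 5954 CPM in Ccr7-high and 2957 CPM in other cells of the pool without it. Of the Irf7 molecules of all Ccr7-high cells, 1 cell held 47.6%. Neither difference between the pools was tested.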

How the results depend on the processing

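No paired analysis was possible because each pool is 1 sample. The share difference for dendritic cells was 0.821 points among cells under the S100a8 limit and 0.221 to 0.552 points with a tag left out. The Ccr7-high share difference kept its direction under every alternative run, from -47.9 to -20.8 points with a tag left out and -17.8 points with Fscn1 in place of Ccr7. The 21 calls between pools became 12 with a minimum of 100 molecules, 13 without Itgae-positive cells, and 47 to 105 with a tag left out, where fewer tags have to be apart. The 47 calls for Ccr7-high cells became 31 with a minimum of 100 molecules and 79 with Fscn1 in place of Ccr7, and 10 to 52 with a tag left out. The 47 calls for Itgae-positive cells were 45 to 51 with a tag left out. Leaving out tag 2 was not run there, since no Itgae-positive cell then remains in its pool. The 68 calls against Flt3-zero cells were 41 against Ptprc-positive ones and 66 to 101 with a tag left out. The 44 calls against macrophages were 44 to 69, the most without tag 1.

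Of the named gene values under the alternatives, 5 reversed. Casp1 between pools had a log2 ratio of 0.19 with at least 2 Flt3 molecules required, against -0.63 as reported. Clec4e in Ccr7-high cells had 0.10 with that minimum, against -1.47. Il1rn in Ccr7-high cells had -0.018 to 2.32 with a tag left out, the lowest without tag 2, -0.71 with at least 10 Ccr7 molecules and -0.26 with Fscn1 in place of Ccr7, against 1.54. The cause was not tested. A further 127 values lost their call, 104 gained one and 179 with no call changed sign, while 3127 stayed. Cell number limits tags 4, 1 and 2, with 12, 8 and 10 cells. At that number a gene seen in few cells is decided by 1 of them. Thinning each cell to 1000 molecules left out 20 of the 92 cells, 19 of them in tag 3, where depth was lowest.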

Other observations

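The 12 dendritic cells that fitted no group were rich in Cd7, at 12824 CPM, and in Cd83, a maturation marker, at 17505 CPM. Clec10a was at 4030 CPM, with 32 molecules in 1 cell, 23 in another and 0 in several. Their Flt3 level was 5025 CPM, against 5070 CPM in the Itgae-positive cells, but 1 cell held 34 of their Flt3 molecules and another 23. The medians were 4.5 and 10.5 Flt3 molecules a cell, at median depths of 1106 and 2650.5 molecules. The cell with 23 was the tag 1 cell with Ccr9, Igkc and Iglc3, where Siglech was not counted. Ccr2 was at 2512 CPM in the 12 cells. Cd7 was also high in the Siglech-high cells, at 18065 CPM, and was at 89 CPM in the Fscn1-high cells.

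Il1r2, the decoy receptor for interleukin 1, was at 9263 CPM in the Ccr7-high cells with little Fscn1 and at 2259 CPM in the Fscn1-high cells. These are sums over a few cells of tags that differ in number, and no test was made.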
